A study of Mus musculus with 27 samples.

Results

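Hepatic mRNA levels were described for 10 genes that make glucose from pyruvate or set what becomes of pyruvate in mitochondria: *Pck1*, *Pcx*, *Fbp1*, *Ppargc1a*, *Pdk1*, *Pdk2*, *Pdk4*, *Pdha1*, *Mpc1* and *Mpc2*. They were taken by symbol from the 23191 gene symbols of the RNA-Seq count table, and each of the 10 had 1 row. Livers came from 27 male C57BL/6J mice that were 8 weeks old when the diets began and were studied after 4 weeks of diet. There were 7 littermate controls on chow, 6 HGFAC-KO mice on chow, 7 controls on HF/HS diet, which is rich in fat and sucrose, and 7 HGFAC-KO mice on HF/HS diet. The KO was a whole-body CRISPR/Cas9 deletion that reaches from within exon 1 of *Hgfac* through exon 2, so cells outside the liver lacked HGFAC too. HGFAC is a serine protease made by hepatocytes that activates hepatocyte growth factor. Whether the mice were fed or fasted, and at what hour livers were taken, is not given for these libraries in the sources used here. For liver triglycerides in the same 4 groups the study refed mice after an overnight fast, and whether the RNA came from those livers is not stated.

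Pyruvate stands at a branch point in hepatocytes. The carrier proteins MPC1 and MPC2 together bring it into mitochondria, where pyruvate carboxylase (*Pcx*) turns it into oxaloacetate for gluconeogenesis and the pyruvate dehydrogenase complex, of which *Pdha1* encodes a catalytic subunit, turns it into acetyl-CoA. The kinases encoded by *Pdk1*, *Pdk2* and *Pdk4* phosphorylate and switch off that complex, and *Pdk4* is a classic gene of the fasted liver. PEPCK (*Pck1*) converts oxaloacetate to phosphoenolpyruvate, fructose-1,6-bisphosphatase (*Fbp1*) acts further along the same route, and PGC-1α (*Ppargc1a*) is a coactivator of gluconeogenic genes. Protein, phosphorylation and flux were not measured here.

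Libraries held 36056177 to 57298657 counts (median 47239271). *Hgfac* itself averaged 201 ± 12.8 CPM (counts scaled to a common library size) in controls and 75.2 ± 8.27 in HGFAC-KO mice on chow, and 271 ± 15.5 and 91.8 ± 7.94 CPM on HF/HS diet (SD), with no overlap between genotypes on either diet. Reads from outside the deleted part still count towards the gene. CPM were scaled by edgeR's TMM factors, and differences are log2 fold changes of the quasi-likelihood fit in edgeR, with p-values adjusted by Benjamini-Hochberg over all genes tested; a gene was called at an adjusted p under 0.05. Exact permutation tests were two-sided, on log2 CPM.

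All 10 genes passed the count filter in every comparison. HF/HS diet raised *Pcx* and lowered *Pdk4* in controls, 2 of 10 genes called against 10.5% of the 13525 genes tested. DESeq2 and limma voom called the same 2 genes. In HGFAC-KO mice edgeR called 1 of 10 with the diet, *Pdk4*, which fell, against 5.89% of 13613 genes; limma voom called *Pdk4* and DESeq2 called *Pdk4* and *Pdha1*, both lower. Between genotypes edgeR called 0 of the 10 on chow, where 0.00737% of 13571 genes were called (1 gene, *Hgfac*), and 0 of the 10 on HF/HS diet, where 0.0148% of 13544 were called. Before adjustment, p was under 0.05 for 0 of them on chow and for 3 on HF/HS diet (*Pck1*, *Pcx* and *Pdha1*, each with a log2 fold change below 0 in the KO), beside 5.98% and 9.64% of all genes. DESeq2 called 0 and 1 (*Pcx*) of the 10 in the same comparisons, and limma voom called 0 and 0. The genotype by diet interaction was called for 0 of the 10 genes and 0% of 13932 by edgeR, and DESeq2 and limma voom called 0 as well, with 1 of the 10 (*Pcx*) at an unadjusted p under 0.05 beside 3.63% of all genes.

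**Figure D1:**
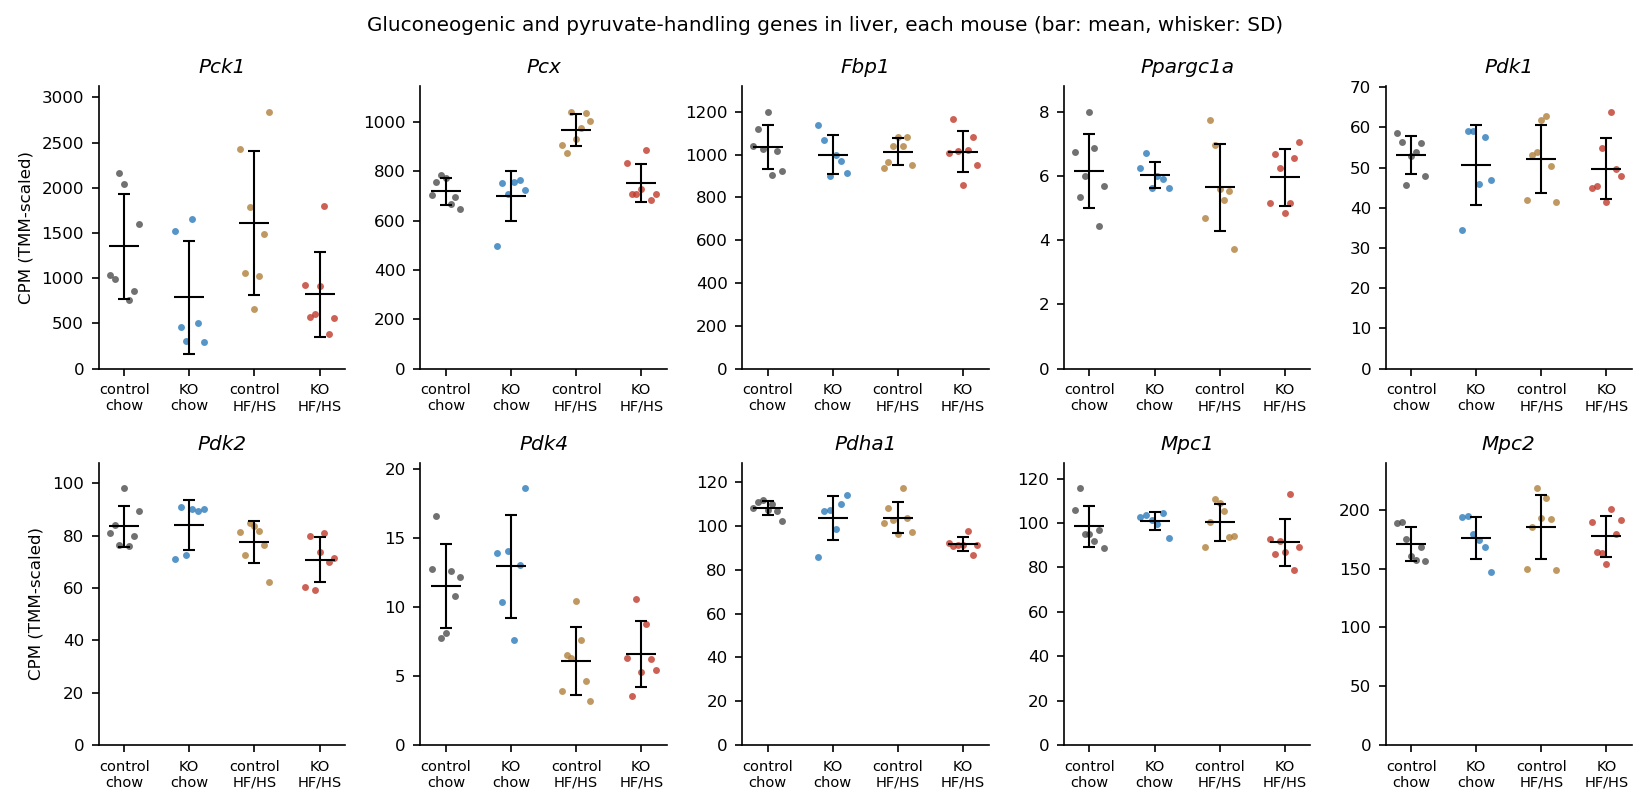
TMM-scaled CPM (vertical axis, from 0) of the 10 genes in each mouse of the 4 groups, with the mean as a bar and the SD as whiskers. *Pcx* in controls on HF/HS diet, 875 CPM or more, lies above every control on chow, and *Pdk4* is lower in both HF/HS groups.

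*Pcx* and *Pck1* encode the first committed steps of gluconeogenesis from pyruvate, and *Pdk4* answered the diet in both genotypes, so their promoter windows are shown. All 10 genes had at least 1 entry (14 in all) in the RefSeq table of promoter windows, each running from 250 bases before to 50 bases after a start site, on GRCm38.p6. Capitals mark matches, on either strand, to a cAMP response element (TGACGTCA or the TTACGTCA of the *Pck1* gene), a forkhead core (GTAAACA), an E-box (CACGTG) or an extended nuclear receptor half-site (TCAAGGTCA). Only the *Pck1* window and the upstream *Pcx* window, which has a start site of its own ahead of the downstream one, held a match among those shown. The *Pck1* window is chr2:173152823-173153122 on the plus strand, the *Pcx* windows are chr19:4510222-4510521 and chr19:4594069-4594368 on the plus strand, and the *Pdk4* window is chr6:5496229-5496528 on the minus strand.
Pck1: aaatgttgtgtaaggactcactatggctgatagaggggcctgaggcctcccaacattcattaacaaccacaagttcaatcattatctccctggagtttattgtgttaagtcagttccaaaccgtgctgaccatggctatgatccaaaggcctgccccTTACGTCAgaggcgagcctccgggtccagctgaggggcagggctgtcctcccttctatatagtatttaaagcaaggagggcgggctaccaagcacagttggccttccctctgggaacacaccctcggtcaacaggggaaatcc
Pcx, upstream start: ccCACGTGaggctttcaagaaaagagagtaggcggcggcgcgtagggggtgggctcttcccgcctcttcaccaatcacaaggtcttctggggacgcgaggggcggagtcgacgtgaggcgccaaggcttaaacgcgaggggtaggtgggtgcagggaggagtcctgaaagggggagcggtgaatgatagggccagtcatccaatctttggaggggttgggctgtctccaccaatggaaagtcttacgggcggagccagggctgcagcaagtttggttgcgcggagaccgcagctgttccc
Pcx, downstream start: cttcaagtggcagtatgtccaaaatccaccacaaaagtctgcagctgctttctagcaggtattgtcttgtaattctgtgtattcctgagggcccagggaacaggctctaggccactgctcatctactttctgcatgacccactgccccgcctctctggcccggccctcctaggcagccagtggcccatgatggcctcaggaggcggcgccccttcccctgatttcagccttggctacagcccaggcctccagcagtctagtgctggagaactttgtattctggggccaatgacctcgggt
Pdk4: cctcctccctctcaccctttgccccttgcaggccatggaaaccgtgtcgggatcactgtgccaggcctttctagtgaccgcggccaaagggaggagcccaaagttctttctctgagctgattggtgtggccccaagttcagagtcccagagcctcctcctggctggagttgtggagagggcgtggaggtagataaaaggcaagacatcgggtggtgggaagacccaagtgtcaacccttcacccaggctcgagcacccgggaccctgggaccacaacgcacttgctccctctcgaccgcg

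In the *Pck1* window TTACGTCA began 93 bases before the start site, a match that 164 of all 32851 windows held (0.499%). CACGTG lay at bases 3 to 8 of the upstream *Pcx* window and also in a *Pdk2* window. It was present in 2349 windows (7.15%). The other letters were in none of the 14 windows of these genes and in 1.79% (TGACGTCA), 3.65% (GTAAACA) and 0.423% (TCAAGGTCA) of all windows. The count table joins all transcripts of a gene, so reads from the 2 *Pcx* start sites were not told apart.

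Pyruvate carboxylase opens the gluconeogenic route. In controls on chow *Pcx* ran from 647 to 787 CPM (median 702), and in controls on HF/HS diet from 875 to 1042 CPM (median 977). Every control on HF/HS diet stood above every control on chow. The rise was 34.5% (log2 fold change 0.43 ± 0.06 SE, adjusted p = 0.000232 by edgeR). The exact permutation test gave p = 0.000583, the smallest that 7 against 7 mice can give. In HGFAC-KO mice *Pcx* ran from 497 to 766 CPM on chow (median 737) and from 683 to 887 CPM on HF/HS diet (median 709.5). These groups overlapped widely, with 2 of 7 KO mice on HF/HS diet above all KO mice on chow, and the log2 fold change of 0.10 did not pass (95% interval -0.11 to 0.31, edgeR adjusted p = 0.579). The lowest value, 497 CPM in KO mouse 1 on chow, lay well under the other 5 (709 to 766 CPM). Without that mouse the diet log2 fold change in KO mice was 0.02 (edgeR adjusted p = 0.926).

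The genotypes overlapped in *Pcx* on chow and lay mostly apart on HF/HS diet. On chow the log2 fold change of KO over control was -0.03 (95% interval -0.22 to 0.16, edgeR adjusted p = 0.95). On HF/HS diet KO mice had 0.777 times the level of controls, a log2 fold change of -0.36 ± 0.07 SE with a 95% interval from -0.51 to -0.22. Of the 7 KO mice, 6 lay below every control, and KO mouse 5 (887 CPM) reached past the lowest control. The exact permutation test of this gene alone gave p = 0.00117, while the edgeR p of 6.77e-05, rank 4 of 13544 genes, became 0.229 after adjustment. The call turned on the tool and on 1 mouse: adjusted p was 0.000663 by DESeq2, 0.164 by limma voom and, without KO mouse 5, 0.0188 by edgeR (log2 fold change -0.41). The difference between the genotypes in the diet response was itself -0.33 on the log2 scale (95% interval -0.56 to -0.10), with an edgeR p of 0.00734 that was 0.984 after adjustment. A larger *Pcx* response in controls than in KO mice was therefore seen in the estimate and not in the adjusted test.

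PEPCK, the enzyme after pyruvate carboxylase in this route, had the widest spread of the 10 genes relative to its mean. *Pck1* ran from 763 to 2166 CPM in controls on chow (median 1038) and from 291 to 1652 CPM in KO mice on chow (median 479). On HF/HS diet it ran from 655 to 2842 CPM in controls (median 1489) and from 377 to 1796 CPM in KO mice (median 608). KO mice were mostly low with a few high animals: on chow 4 of 6 lay below every control and the other two, mice 1 and 4, were at 1519 and 1652 CPM, and on HF/HS diet 4 of 7 lay below every control. The log2 fold change of KO over control was -0.77 ± 0.47 SE on chow (edgeR adjusted p = 0.822) and -0.97 ± 0.38 SE on HF/HS diet (adjusted p = 0.454). Exact permutation p-values were 0.0589 and 0.0291. Neither difference passed the adjusted test, and the intervals, -1.79 to 0.25 and -1.79 to -0.16, were wide. Diet differences in *Pck1* were 0.25 in controls and 0.06 in KO mice on the log2 scale, with standard errors of 0.34 and 0.49, and neither was called.

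Levels of clock genes varied widely between mice and groups. Transcripts of the clock output gene *Dbp* ran from 4.88 to 36.6 CPM in controls on chow, 3.42 to 39.9 in KO mice on chow, 22.3 to 60.7 in controls on HF/HS diet and 4.17 to 42.2 in KO mice on HF/HS diet. Of 13 core clock and output genes, 10 were lower and 3 higher in KO mice than in controls on HF/HS diet, with 7 at an unadjusted p under 0.05 (9.64% of all genes), 0 called by edgeR or limma voom, 1 (*Arntl*) by DESeq2, and a median log2 fold change of -0.32 against -0.002 over all genes. With the diet in controls edgeR called 2 of the 13, beside 10.5% of all genes, and both rose: *Dbp* (log2 fold change 1.47, edgeR adjusted p = 0.0284) and *Nr1d1*, a clock repressor (0.77, adjusted p = 0.0272). DESeq2 called 4 higher and 1 lower there (*Arntl*) and limma voom 4 higher. In KO mice edgeR, DESeq2 and limma voom called 0 of the 13 with the diet, with 1 at an unadjusted p under 0.05 by edgeR. When the log2 ratio of *Dbp* to *Arntl*, 2 clock genes of opposite phase, was added as a covariate after the data had been seen, the *Pck1* difference on HF/HS diet went from -0.97 to -0.45 and the *Pcx* difference from -0.36 to -0.29 (edgeR, neither called). The diet differences in *Pck1* turned sign, to -0.36 in controls and -0.18 in KO mice (neither called). The diet rise of *Pcx* in controls held at 0.40 (adjusted p = 0.0469). Since *Dbp* was itself called with the diet in controls, clock state and group cannot be told apart in this fit, and its values are not corrected estimates. Beside this, all 8 pericentral genes had log2 fold changes below 0 in KO mice on HF/HS diet (median -0.32, 6 at an unadjusted p under 0.05 beside 9.64% of all genes, 0 called by edgeR or limma voom and 1, *Oat*, by DESeq2), with *Glul*, the glutamine synthetase of pericentral hepatocytes, at -0.25. The part of zonation in the *Pcx* and *Pck1* values was not tested.

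Fructose-1,6-bisphosphatase had no called difference. *Fbp1* ran from 858 to 1201 CPM over all 27 mice, and its 4 group means were 1034 ± 103, 999 ± 91.0, 1014 ± 62.0 and 1014 ± 96.6 CPM (SD) for control chow, KO chow, control HF/HS and KO HF/HS. All groups overlapped. Its 4 pairwise log2 fold changes lay between -0.04 and 0.02, and on HF/HS diet the 95% interval of KO over control was -0.14 to 0.14. *Fbp1* was the most abundant of the 10 per length in every group.

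PGC-1α transcripts were scarce in all groups. *Ppargc1a* ran from 3.72 to 8.00 CPM over all mice with group means from 5.64 to 6.15 CPM, and the groups overlapped. Its log2 fold changes were -0.03 and 0.08 between genotypes and -0.13 and -0.02 between diets. The 95% interval of KO over control was -0.27 to 0.21 on chow and -0.22 to 0.38 on HF/HS diet.

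Both subunits of the mitochondrial pyruvate carrier were measured. *Mpc1* had medians of 95.2, 102, 100.3 and 89.0 CPM (control chow, KO chow, control HF/HS, KO HF/HS), and on HF/HS diet controls spanned 89.2 to 111 CPM and KO mice 79.0 to 113 CPM. Of the KO mice on HF/HS diet, 4 of 7 were below every control and 1, mouse 5 at 113 CPM, was above them all. The log2 fold change was -0.14 ± 0.07 SE between genotypes on that diet (edgeR adjusted p = 0.568) and -0.14 ± 0.07 between diets in KO mice (adjusted p = 0.237). Without KO mouse 5 the latter was -0.21 with an adjusted p of 0.028. *Mpc2* ran from 147 to 219 CPM over all mice with overlap between all groups, and its pairwise log2 fold changes lay between -0.06 and 0.12. Per length, *Mpc2* stood at 0.493, 0.496, 0.523 and 0.555 times *Mpc1* in the 4 groups in the same order. The direction rests on the lengths used, merged exons of 7344 bases for *Mpc2* and 2082 for *Mpc1*. Not scaled by length, *Mpc2* was the higher, at 171 against 98.4 CPM on average in controls on chow.

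The catalytic subunit of pyruvate dehydrogenase came close to the threshold in some comparisons. On HF/HS diet *Pdha1* spanned 96.3 to 117 CPM in controls (median 103), while KO mice spanned 86.9 to 97.9 CPM (median 91.4). Of the KO mice, 6 of 7 lay below every control, and the groups met only at KO mouse 5 (97.9 CPM). The log2 fold change was -0.18 ± 0.05 SE (95% interval -0.28 to -0.08, exact permutation p = 0.00175). By edgeR the p of 0.002 became 0.341 after adjustment, and DESeq2 gave an adjusted p of 0.0611. In KO mice the diet difference was also -0.18 (SE 0.06, edgeR adjusted p = 0.0969, exact permutation p = 0.0186). That second value passed in some settings, with adjusted p-values of 0.0479 by DESeq2, 0.0371 in a fit of all 27 mice and 0.0102 without KO mouse 1 on chow (85.9 CPM, the lowest of its group). On chow *Pdha1* ran from 102 to 112 CPM in controls while KO mice spanned 85.9 to 114 CPM, a log2 fold change of -0.06.

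*Pdk4* transcripts fell with HF/HS diet in both genotypes. In controls *Pdk4* ran from 7.76 to 16.6 CPM on chow (median 12.2) and from 3.21 to 10.4 CPM on HF/HS diet (median 6.27). In KO mice it ran from 7.62 to 18.6 CPM on chow (median 13.5) and from 3.53 to 10.6 CPM on HF/HS diet (median 6.26). In each genotype all 7 mice on HF/HS diet were below the chow median, though the ranges overlapped. The level on HF/HS diet was 0.525 times that on chow in controls (log2 fold change -0.93 ± 0.24 SE, edgeR adjusted p = 0.0227, exact permutation p = 0.0035) and 0.508 times in KO mice (-0.98 ± 0.24 SE, adjusted p = 0.0272, exact permutation p = 0.00641). These calls were close to the threshold. Leaving out control mouse 2 on chow (16.6 CPM) gave an adjusted p of 0.0516 in controls, and leaving out KO mouse 3 or 6 on chow or KO mouse 6 or 7 on HF/HS diet gave 0.0513 to 0.0546 in KO mice. With the clock covariate the log2 fold change was -0.54 in controls (adjusted p = 0.609) and -0.89 in KO mice (adjusted p = 0.0621).

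The genotypes overlapped in *Pdk4* on both diets. KO over control was 0.17 ± 0.20 SE on chow and 0.12 ± 0.27 on HF/HS diet on the log2 scale, with edgeR adjusted p-values of 0.864 and 0.919. The interaction was -0.05 with a 95% interval from -0.78 to 0.68.

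**Figure D2:**
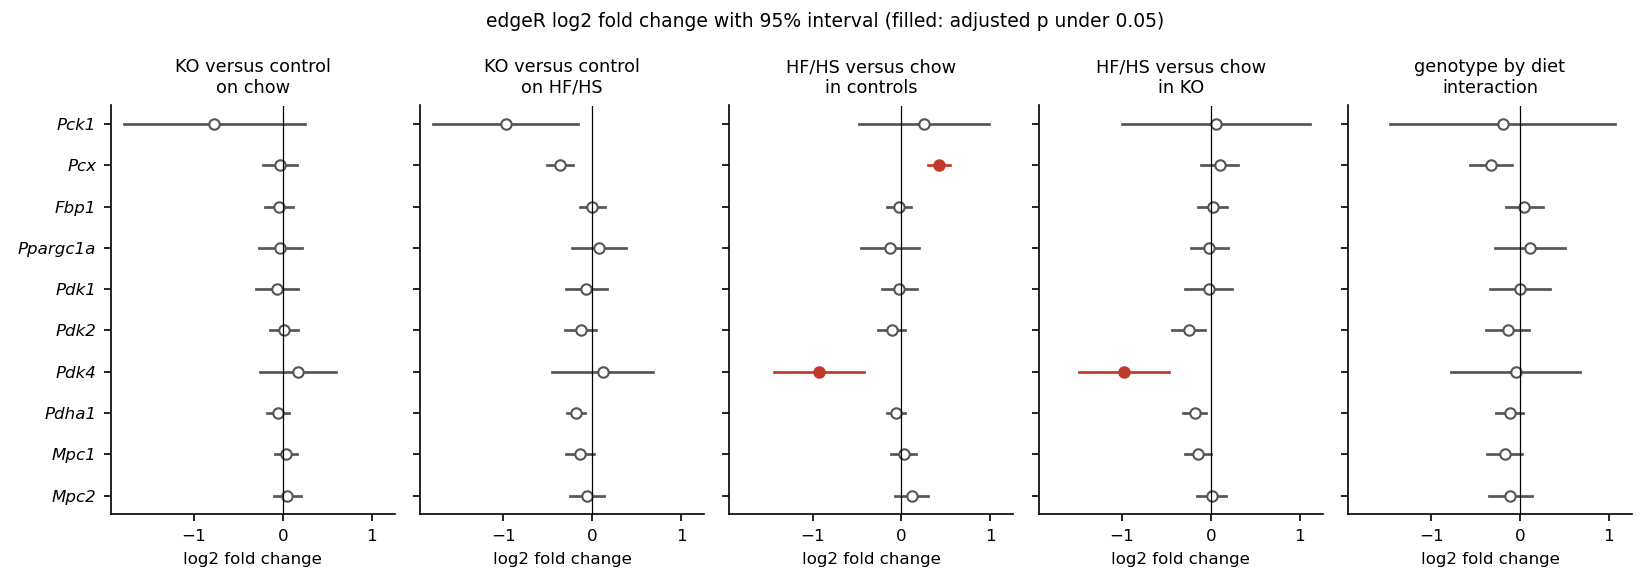
edgeR log2 fold changes (horizontal axis) of the 10 genes with 95% intervals in the 4 pairwise comparisons and the interaction; filled red points have an adjusted p under 0.05. *Pcx* and *Pdk4* in controls and *Pdk4* in HGFAC-KO mice are the filled points, and the intervals of *Pck1* are the widest in each panel.

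*Pdk2* and *Pdk1* encode further kinases of the complex. *Pdk2* ran from 76.1 to 98.1 CPM in controls on chow, 71.2 to 90.8 in KO mice on chow, 62.2 to 84.8 in controls on HF/HS diet and 59.4 to 80.8 in KO mice on HF/HS diet. All 7 KO mice on HF/HS diet were below the median of KO mice on chow (89.6 CPM), with a log2 fold change of -0.25 ± 0.09 SE (edgeR adjusted p = 0.11, exact permutation p = 0.0286). This difference passed in 2 of 22 settings, with edgeR adjusted p-values of 0.0396 with 1 surrogate variable and 0.0317 with the replicate number as a block. In controls the diet difference was -0.11 ± 0.07 SE. *Pdk1* ran from 34.5 to 63.9 CPM over all mice, its groups overlapped, and its pairwise log2 fold changes lay between -0.07 and -0.02. The lowest *Pdk1*, *Pdk2*, *Pdha1* and *Pcx* values of KO mice on chow all came from mouse 1, and the highest values of 7 of the 10 genes in KO mice on HF/HS diet came from mouse 5.

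Levels of different kinases were compared per kilobase of merged exons. Among the 4 kinase genes, *Pdk3* included, *Pdk2* made up 72.1% ± 3.25, 71.95% ± 3.59, 74.2% ± 3.09 and 72.6% ± 4.52 of the summed CPM per kb in control chow, KO chow, control HF/HS and KO HF/HS (SD). *Pdk1* made up 17.6% to 20.8% of that sum as a group mean, and *Pdk3* at most 0.966% in any mouse. The *Pdk4* share was 8.96% ± 2.17 and 10.1% ± 2.96 on chow and 5.11% ± 1.6 and 6.14% ± 2.26 on HF/HS diet. Per length *Pdk4* was thus a minor kinase transcript in these livers on either diet, and *Pdk2* the main one. The shares depend on the merged exon lengths, 7779 bases for *Pdk1* and 3163 for *Pdk2*. Not scaled by length, means in controls on chow were 83.5 CPM for *Pdk2*, 53.0 for *Pdk1* and 11.5 for *Pdk4*.

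Per length the 10 genes spanned a wide range of levels. Over all 27 mice *Fbp1* averaged 597 CPM per kb, *Pck1* 337 and *Pcx* 166. *Mpc1* followed at 46.9, *Pdha1* at 27.3, *Pdk2* at 24.9 and *Mpc2* at 24.2 CPM per kb. *Pdk1* averaged 6.61, *Pdk4* 2.61 and *Ppargc1a* 0.901 CPM per kb. Neighbours in this order were not all distinct. *Fbp1* was above *Pck1* in 24 of 27 mice. *Pck1* was above *Pcx* in 21 of 27 mice, but in only 2 of 6 KO mice on chow. *Pdk2* was above *Mpc2* in 14 of 27 mice and *Pdha1* above *Pdk2* in 21, whereas *Pcx* was above *Mpc1* and *Mpc1* above *Pdha1* in all 27. *Pcx* per kb was 5.21 ± 0.311 times *Pdha1* in controls on chow and 5.29 ± 0.502 times in KO mice on chow. On HF/HS diet it was 7.35 ± 0.706 times in controls and 6.42 ± 0.469 times in KO mice. Both HF/HS groups, at 6.35 to 8.12 and 6.08 to 7.11, lay above both chow groups (4.55 to 6.01).

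**Figure D3:**
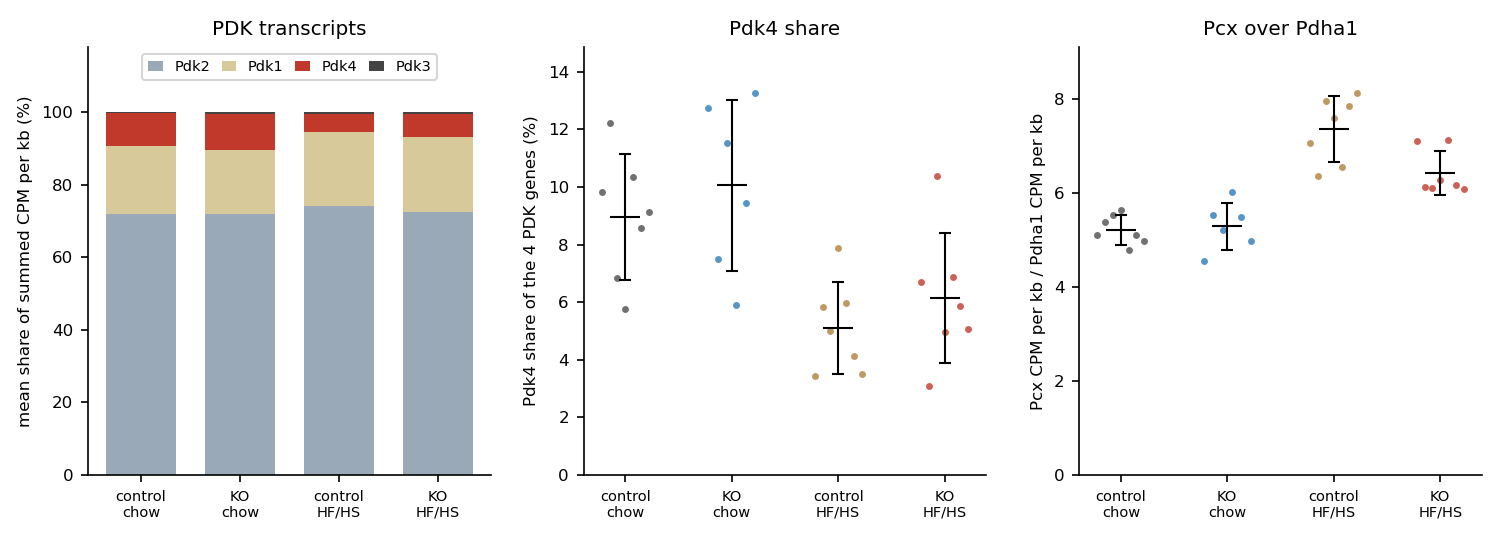
Left, mean share (%) of *Pdk2*, *Pdk1*, *Pdk4* and *Pdk3* in their summed CPM per kb in the 4 groups; middle, the *Pdk4* share (%) in each mouse; right, *Pcx* over *Pdha1* per kb in each mouse, with bars for means and whiskers for SD. The mean share of *Pdk2* is lowest in KO mice on chow, at 71.95%, and the *Pcx* to *Pdha1* ratio is 6.08 or more in all mice on HF/HS diet.

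*Pck1* and *Pdk4* are both genes of the fasted liver. In 3 of the 4 groups the mouse with the highest *Pck1* had the lowest *Pdk4*: control mouse 3 on chow (2166 and 7.76 CPM), KO mouse 4 on chow (1652 and 7.62 CPM) and control mouse 7 on HF/HS diet (2842 and 3.21 CPM). The exception was KO mouse 5 on HF/HS diet, at 1796 CPM of *Pck1* and 8.80 CPM of *Pdk4*, the second highest *Pdk4* of its group. The same 3 mice had the highest summed CPM of the 13 core clock and output genes in their groups (586, 584 and 596). Among KO mice on HF/HS diet mouse 4 had the highest sum, at 581 CPM. These comparisons were chosen after the values were seen and were not tested.

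**Figure D4:**
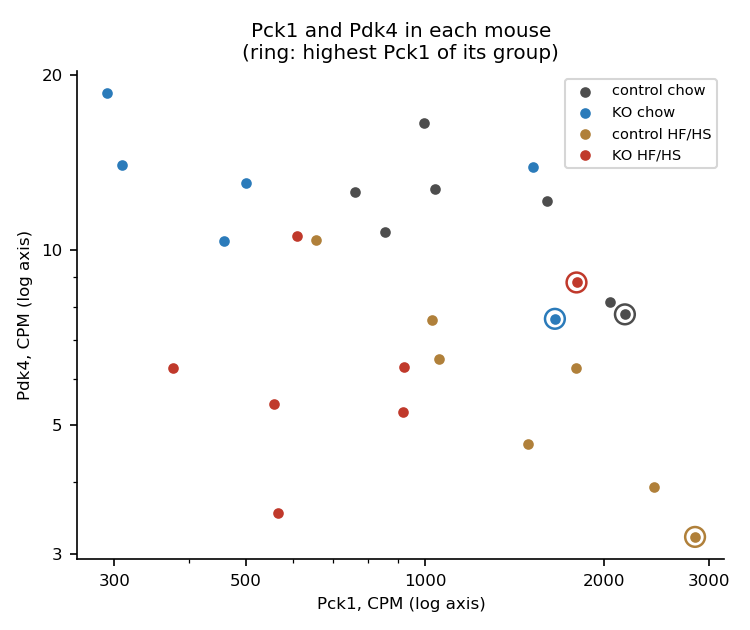
*Pck1* CPM (horizontal, log axis) against *Pdk4* CPM (vertical, log axis) in each of the 27 mice, coloured by group, with a ring on the mouse with the highest *Pck1* of each group. The rings of both control groups and of KO mice on chow sit at the lowest *Pdk4* of their group.

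Other genes of the route changed with diet in both directions. Of 22 further genes of gluconeogenic steps, 21 were tested and edgeR called 8 with HF/HS diet in controls (10.5% of all genes were called, and 5.89% in KO mice), 2 higher and 6 lower, with a median log2 fold change of -0.13 beside 0.004 over all genes. The higher ones were *Slc2a2*, the hepatic glucose transporter GLUT2 (0.74 ± 0.10 SE, adjusted p = 0.000319), and *Slc25a13*, while those that fell included *Slc25a12* (-0.30 ± 0.05, adjusted p = 0.00228), *Pgk1* (-0.18 ± 0.04, adjusted p = 0.00899), *Aldoa*, *Tpi1* and *Pgam1*. *Pgk1*, *Aldoa*, *Tpi1* and *Pgam1* act in both glycolysis and gluconeogenesis. In KO mice edgeR called 3 of 21, each lower: *Mdh2* (-0.27), *Pgk1* (-0.27) and *Aldoa* (-0.33). *Slc2a2* had a diet log2 fold change of 0.58 ± 0.18 SE in KO mice (edgeR adjusted p = 0.0748) and was called higher there by DESeq2. *G6pc*, the catalytic subunit of glucose-6-phosphatase and the last enzyme of the route, averaged 144, 103, 208 and 124 CPM in the 4 groups with SDs of 66.9 to 81.2 and had no called difference. Its KO over control log2 fold changes were -0.48 ± 0.43 SE on chow and -0.75 ± 0.39 on HF/HS diet. *Pck2*, the mitochondrial PEPCK, stood at 4.44 to 5.42 CPM as group means.

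Genes that feed pyruvate or glycerol into the route were also called with diet. Of 17 such genes 16 were tested, and with HF/HS diet in controls 4 rose and 4 fell by edgeR, again beside 10.5% of all genes called and 5.89% in KO mice. *Ldha*, which interconverts lactate and pyruvate, rose by 0.46 ± 0.06 SE on the log2 scale (edgeR adjusted p = 7.42e-05), *Gpd2*, the mitochondrial glycerol-3-phosphate dehydrogenase, by 0.67 ± 0.10 (adjusted p = 0.000432) and *Pklr*, the liver pyruvate kinase, by 0.73 ± 0.12 (adjusted p = 0.00127). *Gpd1* was the other gene that rose, and the 4 that fell were *Gpt*, *Sdsl*, *Slc16a7* and *Tat*, of which *Gpt* and *Tat* encode aminotransferases. In KO mice edgeR called 1 higher (*Gpd2*, 0.67) and 5 lower, with *Gpt* at -0.41 (adjusted p = 0.00132) and *Gpt2* at -0.37 (adjusted p = 0.0099). *Ldha* (0.33 ± 0.10 SE, edgeR adjusted p = 0.0589) and *Pklr* (0.66 ± 0.21 SE, edgeR adjusted p = 0.0779) were called higher in KO mice by DESeq2 only. The median absolute log2 fold change of these genes was 0.32 in controls and 0.39 in KO mice, beside 0.11 and 0.12 over all genes tested. Between genotypes edgeR called 0 of the 21 gluconeogenic genes and 0 of these 16 on either diet, and before adjustment 1 of each list had a p under 0.05 on chow (5.98% of all genes) and 4 of each on HF/HS diet (9.64%). DESeq2 called 1 of them, *Slc25a13*, lower in the KO on HF/HS diet, and limma voom called 0.

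The rest of the pyruvate dehydrogenase complex had no call. Of 12 further subunit, kinase, phosphatase and lipoylation genes, 11 were tested and edgeR, DESeq2 and limma voom called 0 in each comparison, with 2 in controls and 0 in KO mice at an unadjusted p under 0.05 for the diet, beside 25.4% and 22.4% of all genes. *Pdhb*, the partner of *Pdha1* in the same enzyme, had diet log2 fold changes of 0.11 ± 0.05 SE in controls (adjusted p = 0.161) and 0.10 ± 0.07 in KO mice. *Dlat* stayed within 0.06 of 0 in all 4 pairwise comparisons. The phosphatase genes *Pdp1* and *Pdp2* had diet log2 fold changes of 0.02 and 0.04 in controls.

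Of 24 regulators of these genes, edgeR called 5 with HF/HS diet in controls and 2 in KO mice, beside 10.5% and 5.89% of all genes. *Esrra*, a nuclear receptor that works with PGC-1α, fell by 0.35 in controls (adjusted p = 0.00303) and by 0.37 in KO mice (adjusted p = 0.0419). *Crebbp*, a coactivator of CREB, rose by 0.31 in both (adjusted p = 0.0141 and 0.0129). *Klf9* (0.56), *Ppara* (0.42) and *Foxo1* (0.21) rose in controls, and *Ppara*, a fatty acid sensing receptor, had 0.46 in KO mice with an adjusted p of 0.0527. Between genotypes 0 of the 24 were called on either diet by edgeR, DESeq2 or limma voom. Before adjustment p was under 0.05 for 2 on chow and for 4 on HF/HS diet, beside 5.98% and 9.64% of all genes. *Pparg* was at -0.46 ± 0.11 SE on chow (edgeR adjusted p = 0.801) and -0.44 ± 0.20 SE on HF/HS diet (adjusted p = 0.502), and *Hnf4a* at -0.02 and 0.12. Over these 4 lists, 72 genes were tested for diet, and 21 were called in controls and 11 in KO mice, 9 of them in both; the 2 diet comparisons used different mice.

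The genes nearest to *Pcx* and *Pdk4* over the 27 mice were found by their centred levels. After each gene was centred on its mean, *Grb14* and *Vwa8* had the smallest root mean square differences from *Pcx* among 13931 other genes, 0.114 and 0.117 on the log2 scale, where *Pcx* itself varied by 0.236. *Grb14* averaged 51.5, 50.1, 64.4 and 57.0 CPM in control chow, KO chow, control HF/HS and KO HF/HS. For *Pdk4*, which varied by 0.667, the nearest were *Gstm6* at 0.377 and *Traf3ip2* at 0.417, which left much of its variation unmatched.

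Cell types and zones of the liver were compared by summed marker CPM. Sums of 8 hepatocyte markers, of which albumin is the largest, were 81117 to 93762 CPM in controls against 93421 to 103125 in KO mice on chow, and from 80188 to 100441 and from 92321 to 118424 on HF/HS diet. The genotypes overlapped on both diets, with the sums of KO livers toward the higher end. Single markers were split. On chow 4 of the 8 had a KO over control log2 fold change above 0 and 4 below (median 0.008). On HF/HS diet 6 were above 0 and 2 below (median 0.045). *Alb* had a KO over control log2 fold change of 0.21 on chow and 0.40 on HF/HS diet, not called by edgeR (adjusted p = 0.801 and 0.331) and called by DESeq2 on both diets. Adipocyte markers summed to at most 2.35 CPM and pancreatic acinar markers to at most 1.87 CPM in any mouse. In bulk liver a lower level can mean fewer cells of a type or less RNA per cell, which cannot be told apart, and the part of these markers in the values of the 10 genes was not tested. Of 8 periportal genes, 5 fell with the diet in controls (among them *Ass1* by 0.59 and *Gls2* by 0.58 on the log2 scale) and 2 in KO mice, and 0 rose, beside 10.5% and 5.89% of all genes called in either direction.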

How the data were processed

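Liver RNA was isolated with TRI reagent, libraries were made with a stranded mRNA kit (Kapa), and 50 bp paired-end reads were sequenced. Per the labels and methods, the authors aligned reads with HISAT2 to GRCm38 (mm10) and counted them with featureCounts 1.6.3. The deposited values are whole-number counts per gene, not normalized. The annotation and strand setting of the counting are not given in the sources used here. Of 27179 rows, 3886 had no gene name (4.13% to 12.1% of counts per library) and were left out, and 89 symbols on 191 rows were summed. No 2 libraries of a group were alike within counting noise (chi-square per gene of 17.7 or more).

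Counts were tested in edgeR 4.0.16 (R 4.3.3) with TMM factors, the filterByExpr filter (minimum count 10, total 15) and the robust quasi-likelihood test, using only the 2 groups compared, or all 27 mice for the interaction. DESeq2 1.42.0, limma 3.58.1 (voom), sva 3.50.0, other filters and normalizations, and fits without each mouse were alternatives. Log2 CPM for permutation tests used a prior count of 2. Lengths are merged exons of GENCODE M21. The 10 genes and all gene lists were chosen with earlier results of these data known. Genes named from a list are up to 3 called genes with the smallest p per comparison, plus *Pdk3*, *Pdhb*, *Dlat*, *Pdp1*, *Pdp2*, *Pck2*, *G6pc*, *Pparg*, *Ppara*, *Foxo1* and *Hnf4a*, and the 2 genes nearest to each called member over the mice; *Slc25a13*, *Tpi1*, *Pgam1*, *Gpd1*, *Sdsl*, *Slc16a7*, *Glul*, *Oat*, *Alb*, *Arntl*, *Fgf21*, *Egr1*, *Sox9*, *Kdr*, *Cdh5*, *Clec4g*, *Reln* and *Hbb-bs* were named after their values were seen. Replicates are separate mice. No clear pairing by replicate number was seen: correlations of same-numbered deviations ran from -0.252 to 0.368. With 6 or 7 pairs per comparison these correlations cannot settle whether mice were paired. Some genes of the lists are counted but not reported by name here.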

Additional observations from a re-analysis of the deposited data

Results flagged for a closer look

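In 40 sets of values (10 genes in 4 groups), 3 held a mouse whose distance to its nearest neighbour was large beside the range of its group by Dixon's 95% limit, and chance gives about 1 in 20 such sets. KO mouse 5 on HF/HS diet had 1796 CPM of *Pck1*, against 377 to 921 CPM in the other 6 mice. The same mouse had 113 CPM of *Mpc1*, against 79.0 to 92.7 CPM in the others. KO mouse 1 on chow had 497 CPM of *Pcx*, against 709 to 766 CPM in the other 5 mice.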

How the results depend on the processing

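Calls of *Pcx* with diet in controls held in 23 of 23 settings (log2 fold change 0.40 to 0.45). *Pdk4* was called with diet in 20 of 23 settings in controls and 17 of 22 in KO mice, and *Pcx* between genotypes on HF/HS diet in 2 of 23 (-0.41 to -0.29). Per library, counts went down to 134 for *Pdk4* and 155 for *Ppargc1a*, so counting error is larger for these genes than for the others. Causes of the changes below were not tested.

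Of all genes, KO against control on chow gave 13 calls by DESeq2 and 2 with 1 surrogate variable, against 1. On HF/HS diet DESeq2 gave 55 and a fit of all 27 mice 1, against 2, and leaving out 1 mouse gave 2 to 11 (11 without KO mouse 5, 5 without control mouse 7). Of the 10 genes, 1 was called there by DESeq2 and 0 to 1 without 1 mouse. The diet comparison in controls gave 1 of the 10 with the replicate block (774 of all genes) and 1 with the clock covariate (145 of all genes, against 1424), and 1 to 2 without 1 mouse. In KO mice it gave 2 of the 10 by DESeq2, in a fit of all 27 mice and with the replicate block, 3 with 1 surrogate variable, 0 with the clock covariate and 0 to 2 without 1 mouse. Of all genes DESeq2 then called 1401, against 802, and leaving out 1 mouse gave 467 (without KO mouse 2 on chow) to 950. No clear pairing by replicate number was seen: 1 of 6, 2 of 7, 0 of 7 and 3 of 6 mice correlated best with their own number in the 4 comparisons. In the last, HF/HS diet against chow in KO mice, the median correlation was 0.125 for same-numbered pairs and 0.003 for other pairs. With the block, *Pdk4* in controls had an edgeR adjusted p of 0.059 and *Pdk2* in KO mice one of 0.0317.

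Some log2 fold changes that were not called turned sign. *Fbp1* between genotypes on HF/HS diet was -0.0004 by DESeq2, -0.0006 with 1 surrogate variable, -0.0009 without a filter, -0.0016 with 10 counts in every library, -0.0018 with the block, -0.0020 by limma voom and -0.1285 with the clock covariate. With 1 surrogate variable, *Pcx* (0.0332) and *Mpc2* (-0.0013) between genotypes on chow, *Pdk1* with diet in controls (0.0252), *Ppargc1a* with diet in KO mice (0.0045) and the interactions of *Pdk1* (0.0423) and *Pdk4* (0.0889) turned. By limma voom the interactions of *Pck1* (0.0409) and *Pdk1* (0.0232) did. With the block, *Mpc2* with diet in KO mice (-0.0098) and the interactions of *Pdk1* (0.0532) and *Pdk4* (0.0111) did, and with upper-quartile factors *Mpc2* with diet in KO mice (-0.0024) and the *Pdk1* interaction (0.0022). With the clock covariate, chosen after seeing the data, it was *Pcx* (0.0009) and *Ppargc1a* (0.0005) on chow, *Ppargc1a* on HF/HS diet (-0.0244), *Pck1* (-0.3598), *Fbp1* (0.0475) and *Pdk1* (0.1180) with diet in controls, *Pck1* (-0.1848) and *Ppargc1a* (0.0163) with diet in KO mice, and the *Pck1* interaction (0.0128).

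Without 1 mouse, values ran on chow between genotypes from -0.0088 to 0.0553 (*Pdk2*), -0.0931 to 0.0462 (*Ppargc1a*), -0.0578 to 0.0482 (*Pcx*) and -0.1127 to 0.0221 (*Pdk1*). On HF/HS diet they ran from -0.0349 to 0.0407 (*Fbp1*), -0.0000 to 0.1754 (*Ppargc1a*) and -0.0333 to 0.3019 (*Pdk4*). With diet in controls they ran from -0.0751 to 0.0248 (*Pdk1*), -0.0557 to 0.0090 (*Fbp1*) and -0.0019 to 0.0670 (*Mpc1*). With diet in KO mice they ran from -0.2694 to 0.4093 (*Pck1*), -0.0605 to 0.0296 (*Ppargc1a*), -0.1169 to 0.0236 (*Pdk1*), -0.0211 to 0.0591 (*Fbp1*) and -0.0372 to 0.0404 (*Mpc2*). Interactions ran from -0.0895 to 0.0496 (*Pdk1*), -0.2018 to 0.1310 (*Pdk4*) and -0.5144 to 0.1613 (*Pck1*).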

Other observations

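Gene groups outside the pyruvate route were called mainly with diet. Of 10 genes that respond to feeding and fasting, 2 rose with HF/HS diet in controls by edgeR, beside 10.5% of all genes called: *Cpt1a*, which admits fatty acids to mitochondria (log2 fold change 0.41 ± 0.06 SE, adjusted p = 0.000702), and *Angptl4*, an inhibitor of lipoprotein lipase (0.85 ± 0.26 SE, adjusted p = 0.0495). In HGFAC-KO mice edgeR and limma voom called 0 of the 10, with 2 at an unadjusted p under 0.05 by edgeR, and DESeq2 called 2. These were *Fgf21*, a hepatic hormone gene (2.28 ± 0.66 SE, edgeR adjusted p = 0.0596), and *Egr1*, an immediate early gene (1.65 ± 0.53 SE, edgeR adjusted p = 0.088).

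Of 6 Kupffer cell genes, edgeR called 3 higher with HF/HS diet in KO mice (*Clec4f*, *Cd5l* and *Adgre1*), beside 5.89% of all genes called, and 0 in controls (10.5% of all genes), where 2 had an unadjusted p under 0.05 and DESeq2 and limma voom each called 1, *Clec4f*. The interaction was called for 0 of the 6 by edgeR, DESeq2 and limma voom, with 0 at an unadjusted p under 0.05 by edgeR. Of 6 endothelial genes, edgeR and limma voom called 1, *Stab2*, higher with the diet in KO mice and 0 in controls (3 at an unadjusted p under 0.05 by edgeR), while DESeq2 called 3 higher in KO mice (*Stab2*, *Kdr* and *Cdh5*) and 1 in controls (*Clec4g*). Of 6 stellate cell genes, 5 had diet log2 fold changes above 0 in controls and 1, *Lrat*, was called lower there by edgeR, DESeq2 and limma voom. In KO mice edgeR and limma voom called 0 of these 6, with 1 at an unadjusted p under 0.05 by edgeR, and DESeq2 called 1, *Reln*, higher. Of 4 red cell genes, edgeR called 1 lower with the diet in controls, *Hba-a2*, and DESeq2 and limma voom called 2, *Hba-a2* and *Hbb-bs*. In KO mice edgeR, DESeq2 and limma voom called 0 of the 4, with 0 at an unadjusted p under 0.05 by edgeR. Of 5 cholangiocyte genes tested, edgeR called 0 in each comparison, with 1 at an unadjusted p under 0.05 between genotypes on each diet, and DESeq2 called *Sox9* higher in KO mice on HF/HS diet (edgeR log2 fold change 0.78 ± 0.21 SE, adjusted p = 0.344).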
